A study of Mus musculus with 8 samples.

Results

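The genes described are 40 that serve protein folding in the endoplasmic reticulum (ER) and the unfolded protein response, of which 38 were measured among the 30702 genes on the arrays. A probe set counted for a member when it was annotated to that symbol, or a synonym, and to no other gene. The brightest such probe set, by its mean over the 8 arrays, stood for the gene. The probe set of Pdia4 is shared with the microRNA gene Mir704 and that of Manf with Rbm15b, so neither gene is analysed here.

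The inflamed group was 3 Rag1-/- mice of the C57BL/6 strain injected with naïve T cells and taken with severe inflammation of the colon. The control group was 5 Rag1-/- C57BL/6 mice injected with regulatory T cells (Treg), whose colons were not inflamed. Both groups lacked Rag1 and therefore had no mature T or B cells of their own. All were injected at the age of 10 weeks and killed after 2 to 4 months, and their ages are labelled as 4 to 5 months. The sampled tissue is the distal colon in the sample labels and a strip of the whole colon in the series design. Total RNA of each mouse was hybridised to 1 Affymetrix whole-transcript array.

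Secreted and membrane proteins enter the ER through the Sec61 channel, fold there with the help of chaperones and disulfide isomerases, and are sent back to the cytosol for degradation when folding fails. Unfolded protein in the ER lumen is sensed by the membrane proteins IRE1, PERK and ATF6. IRE1 splices the Xbp1 mRNA, PERK phosphorylates eIF2α and so favours translation of ATF4, and ATF6 is cut in the Golgi to release a transcription factor. ATF6 and spliced XBP1 act on chaperone and degradation genes through the ER stress response element, and ATF4 acts on amino acid and stress genes through the C/EBP-ATF response element. In the colon, goblet cells carry a heavy folding load because they make mucin, and they express Ern2, a form of IRE1 found in gut epithelium. The arrays measure mRNA amount per probe set and not splicing, phosphorylation or cleavage, so the activity of the 3 sensors was not measured.

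Values are log2 intensities made with RMA, a difference is the inflamed mean minus the control mean on that scale with its limma standard error (SE), and a gene is said to rise or fall when its Benjamini-Hochberg adjusted p over all 30702 genes was under 0.05. RMA compresses low signals, which understates differences of dim genes. Array medians lay between 4.81 and 4.91. Over all transcript clusters, pairs of inflamed arrays correlated at 0.986 to 0.995, pairs of controls at 0.994 to 0.997 and arrays of different groups at 0.980 to 0.986. Inflamed replicate 2 had the lowest correlations within its group. Xist was low, at 4.11 to 4.53, on inflamed replicates 1 and 2 and on controls 1 and 2. It was high, at 10.65 to 11.28, on the remaining arrays. The sex of each array was taken from Xist alone, with a cut at 7. In whole tissue, fewer cells of a type and less RNA per cell cannot be told apart.

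Of the 38 measured members, 19 rose (50%) and 2 fell (5.26%), against 8.06% of all genes higher, 5.04% lower and 13.1% called in either direction. The 17 others did not pass the test. The 3 inflamed values all lay above the 5 controls for 23 members (60.5%), against 12.0% of all genes, and all below for 3 members (7.895%), against 9.17%. The median difference was 0.34 over the members and -0.01 over all genes. The rises were modest, from 0.20 for Edem1 to 1.13 for Asns, and the lower members were Ern2 and Ddit3. Among chaperones, isomerases, co-chaperones and the translocon 14 of 19 measured members rose. The counts by role given below stand against these same shares of all genes.

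**Figure D1:**
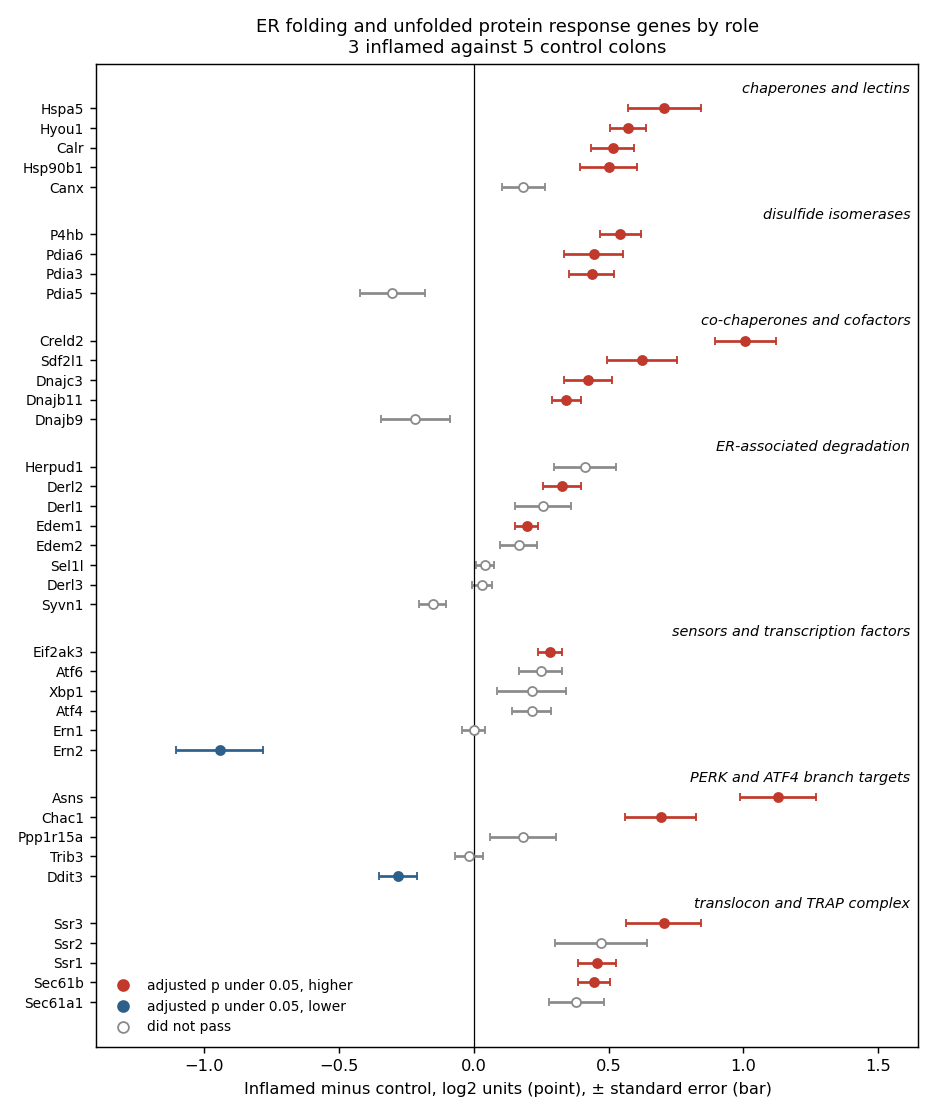
Difference in log2 intensity, inflamed minus control, for the 38 measured members grouped by role, with the limma SE as the bar. Filled red points rose, filled blue points fell and open grey points did not pass the test. Of the 38 points 31 lie right of 0, and Ern2 at -0.94 lies farthest to the left.

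Among the ER chaperones and lectins, 4 of 5 members rose, with a median difference of 0.51 over the group. Hspa5 encodes BiP, the main Hsp70 chaperone of the ER lumen, which also holds the sensors inactive. Its values were 10.60, 10.88 and 10.47 in the inflamed colons, against 10.21, 9.98, 9.93, 9.96 and 9.64 in the controls, so the groups did not overlap, and it rose by 0.71 ± 0.14 (adjusted p = 0.0157). Hyou1, an Hsp110-type nucleotide exchange factor for BiP, was nearly constant within the inflamed group, at 8.96, 8.97 and 8.97 in the inflamed colons, against 8.46, 8.43, 8.49, 8.39 and 8.197 in the controls. It rose by 0.57 ± 0.066 (adjusted p = 0.00224), the member of this group with the smallest adjusted p. Hsp90b1, the ER Hsp90 known as GRP94, had 11.45, 11.77 and 11.43 in the inflamed colons, against 11.06, 11.15, 11.13, 11.10 and 10.81 in the controls and rose by 0.50 ± 0.11 (adjusted p = 0.0227).

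The calreticulin and calnexin genes, which encode the lectins that bind newly glycosylated proteins, differed in their response. Calr, the soluble lectin, was at 11.03, 11.18 and 10.997 in the inflamed colons, against 10.71, 10.68, 10.43, 10.48 and 10.48 in the controls. It rose by 0.51 ± 0.08 (adjusted p = 0.00707). Canx, the membrane-bound lectin, was at 11.14, 11.48 and 11.15 in the inflamed colons, against 11.12, 11.10, 11.02, 11.11 and 11.02 in the controls. The inflamed Canx values all lay above the controls, but replicates 1 and 3 exceeded the highest control by little, and the difference of 0.18 ± 0.081 did not pass (adjusted p = 0.186, 95% interval -0.01 to 0.37). Taken within each array, the log2 difference of Canx minus Calr was lower in the inflamed group by 0.33, without overlap between groups (exact permutation over 56 splits, two-sided p = 0.0179, adjusted p = 0.0357 over the 4 pairs compared, where 0.0179 is the smallest p this design can give). It did not pass with any 1 array left out (exact permutation, adjusted p from 0.0571 to 0.0952). The unadjusted p was then 0.0286 or 0.0476, the smallest that exact permutation of so few arrays can give. These tests therefore cannot show whether the change rests on single arrays. Control 5 was the lowest control for Hsp90b1, at 10.81. The rise of Hspa5 did not pass without inflamed replicate 1 (adjusted p = 0.0503). The rise of Hsp90b1 did not pass without control 4 (adjusted p = 0.051) or after quantile normalization (adjusted p = 0.0751).

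The promoters of these genes are shown because 4 of the 5 chaperone and lectin members have a window in RefSeq and all 4 windows hold the ER stress response element, written ERSE. Its letters, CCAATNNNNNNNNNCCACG, were searched on both strands, and the capitals mark its fixed bases, which read CGTGG and ATTGG where the match is on the other strand. The whole 250 bases before the transcription start are given for Hspa5, with a single match beginning 65 bases upstream, and shorter stretches for the others. Hsp90b1 has 2 matches, and its stretch spans both. The coordinates are those of the mouse build GRCm38.p6, and each sequence reads 5′ to 3′ on the gene's strand.
Hspa5, chr2:34771840-34772089, plus strand: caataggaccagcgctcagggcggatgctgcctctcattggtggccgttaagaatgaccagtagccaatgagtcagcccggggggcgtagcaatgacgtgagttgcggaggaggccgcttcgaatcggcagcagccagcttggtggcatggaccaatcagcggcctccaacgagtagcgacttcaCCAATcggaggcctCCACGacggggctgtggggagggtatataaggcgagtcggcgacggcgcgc
Hsp90b1, chr10:86705515-86705674, minus strand: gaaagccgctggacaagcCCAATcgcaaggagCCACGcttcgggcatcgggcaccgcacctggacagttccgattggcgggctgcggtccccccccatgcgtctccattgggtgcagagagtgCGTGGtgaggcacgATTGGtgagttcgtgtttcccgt
Calr, chr8:84847057-84847111, minus strand: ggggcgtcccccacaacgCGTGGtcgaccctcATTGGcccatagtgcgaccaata
Canx, chr11:50325782-50325836, minus strand: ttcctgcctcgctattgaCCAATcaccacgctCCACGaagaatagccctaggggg
Hspa5, Hsp90b1 and Calr rose and Canx did not pass, so a match was present beside both outcomes.

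**Figure D2:**
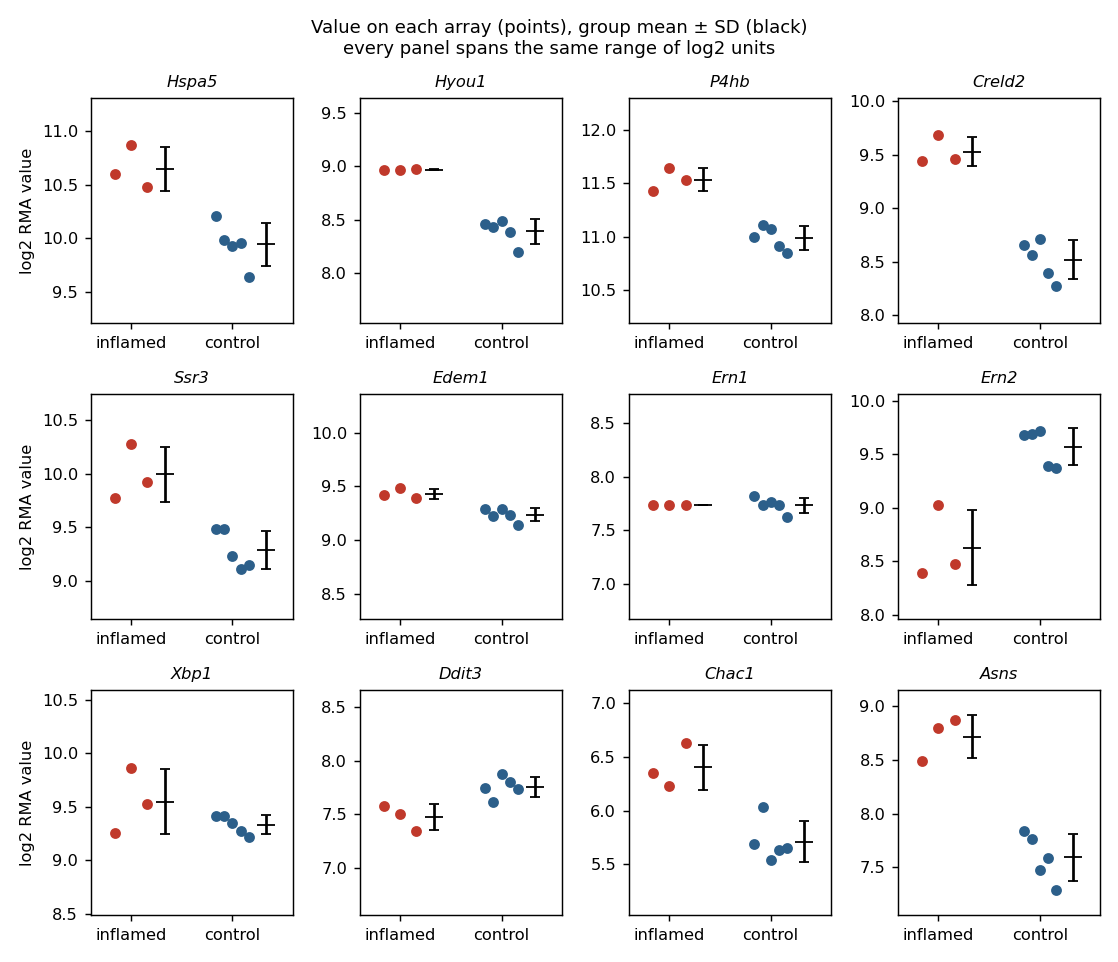
Log2 intensity of 12 members on each array, with the 3 inflamed arrays in red left of the 5 controls in blue and the group mean ± SD in black. The inflamed points of Creld2, Asns and Hyou1 lie above all controls, and those of Ern2 lie below all controls.

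Of the 4 measured protein disulfide isomerases, which form and rearrange disulfide bonds in the ER, 3 rose. P4hb encodes PDI itself and was at 11.43, 11.64 and 11.53 in the inflamed colons, against 11.002, 11.11, 11.07, 10.91 and 10.85 in the controls, a rise of 0.54 ± 0.075 (adjusted p = 0.0045). Pdia3, also called ERp57, works with the calnexin and calreticulin lectins and was at 11.50, 11.68 and 11.43 in the inflamed colons, against 11.24, 11.20, 11.03, 11.08 and 10.94 in the controls. Its rise of 0.44 ± 0.084 (adjusted p = 0.0155) did not pass after quantile normalization (adjusted p = 0.0815). Pdia6 was at 9.94, 10.28 and 10.00 in the inflamed colons, against 9.77, 9.78, 9.64, 9.54 and 9.41 in the controls and rose by 0.44 ± 0.11 (adjusted p = 0.0397), with no overlap of the groups. That call was lost when any of the 8 arrays was left out (adjusted p from 0.0516 to 0.0912), after quantile normalization (0.0548) and with a floor on low values (0.0715).

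Pdia5, another isomerase of the family, was at 8.19, 8.63 and 8.30 in the inflamed colons, against 8.68, 8.67, 8.93, 8.55 and 8.55 in the controls. Its difference of -0.30 ± 0.12 did not pass (adjusted p = 0.152), and inflamed replicate 2 lay inside the control range while replicates 1 and 3 lay below it. Without inflamed replicate 2 the difference was -0.43 and passed (adjusted p = 0.0475), as it did with array weights (adjusted p = 0.0337). The promoter stretch of Pdia6 holds an ERSE on the gene's strand, with the fixed bases in capitals.
Pdia6, chr12:17266473-17266527, plus strand: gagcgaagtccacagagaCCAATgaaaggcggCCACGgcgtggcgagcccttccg
The windows of Pdia3, Pdia5 and P4hb hold no match to this letter pattern, and P4hb was the isomerase gene with the largest rise.

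Among the co-chaperones and cofactors, 4 of 5 measured members rose. Creld2, an ER protein with disulfide isomerase activity that is known as an early ER stress gene, showed the largest rise of the members that act in the ER lumen. Creld2 was at 9.44, 9.68 and 9.46 in the inflamed colons, against 8.66, 8.56, 8.71, 8.39 and 8.27 in the controls, with every inflamed value far above the highest control. It rose by 1.01 ± 0.11 (adjusted p = 0.00204). Dnajb11, also called ERdj3, a co-chaperone that brings unfolded protein to BiP, was at 8.88, 8.96 and 8.998 in the inflamed colons, against 8.55, 8.55, 8.69, 8.70 and 8.53 in the controls. It rose by 0.34 ± 0.054 (adjusted p = 0.00709), and the groups did not overlap.

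Dnajc3, known as p58IPK, a co-chaperone of BiP in the ER lumen, had 9.88, 10.20 and 9.90 in the inflamed colons, against 9.69, 9.53, 9.64, 9.56 and 9.43 in the controls and rose by 0.42 ± 0.089 (adjusted p = 0.0223). Sdf2l1, which forms a complex with Dnajb11, had 8.77, 8.74 and 8.73 in the inflamed colons, against 8.26, 8.34, 8.28, 7.95 and 7.79 in the controls. Its inflamed values lay close together and above a wider spread of controls, and Sdf2l1 rose by 0.62 ± 0.13 (adjusted p = 0.022). The call for Dnajc3 was lost without control 2 (adjusted p = 0.0557) or control 4 (0.0554), and that for Sdf2l1 without any inflamed array or control 4 (0.0517 to 0.0758).

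Dnajb9, also called ERdj4, which represses IRE1 through BiP and is induced by XBP1, was at 9.26, 9.72 and 9.11 in the inflamed colons, against 9.69, 9.51, 9.51, 9.58 and 9.61 in the controls. Replicates 1 and 3 of the inflamed group lay below every control and replicate 2 lay above every control, and the difference of -0.22 ± 0.13 did not pass (adjusted p = 0.316). Without inflamed replicate 2 it was -0.39 and passed (adjusted p = 0.0136), and with array weights it passed as well (adjusted p = 0.0261). The windows of Creld2 and Dnajc3 hold an ERSE, on the other strand in Creld2, and that of Dnajb11 holds the related ERSE-II, whose letters are ATTGGNCCACG and which begins 7 bases after the start. The 250 bases before the start are given for Creld2, the ERSE-bearing member with the largest rise, with the fixed bases in capitals.
Creld2, chr15:88819396-88819645, plus strand: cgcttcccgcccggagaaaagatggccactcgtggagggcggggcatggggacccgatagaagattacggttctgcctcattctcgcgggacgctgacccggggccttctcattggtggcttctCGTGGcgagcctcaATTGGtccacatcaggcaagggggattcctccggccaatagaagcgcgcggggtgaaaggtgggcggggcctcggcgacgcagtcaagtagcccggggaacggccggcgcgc
Dnajc3, chr14:118937809-118937863, plus strand: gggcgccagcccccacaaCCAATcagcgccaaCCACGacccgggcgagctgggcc
Dnajb11, chr16:22857843-22857871, plus strand: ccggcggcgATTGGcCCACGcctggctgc
All 3 genes rose, and Sdf2l1, whose window holds neither pattern, rose too.

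ER-associated degradation, which retrieves misfolded protein and passes it to the proteasome, had 2 of its 8 members higher and 0 lower, with a median difference of 0.18. Over all genes 8.06% were higher and 5.04% lower. Edem1, which marks misfolded glycoproteins for degradation, was at 9.42, 9.48 and 9.39 in the inflamed colons, against 9.29, 9.23, 9.29, 9.23 and 9.14 in the controls and rose by 0.20 ± 0.043 (adjusted p = 0.0245), the smallest rise among the members. Derl2, a membrane protein of the retrieval channel, was at 7.02, 7.05 and 6.89 in the inflamed colons, against 6.78, 6.66, 6.75, 6.54 and 6.55 in the controls and rose by 0.33 ± 0.071 (adjusted p = 0.0241). In both the groups did not overlap, and both calls were lost when some single arrays were left out. For Edem1 these were inflamed replicates 1 and 2 and controls 2 and 4 (adjusted p from 0.0562 to 0.0689), and quantile normalization also ended the call (0.0635). For Derl2 these were inflamed replicates 1 and 2 and controls 2, 4 and 5 (adjusted p from 0.05 to 0.0853).

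The other 6 members of the degradation machinery did not pass. Herpud1, a membrane protein that organises the degradation complex, was at 9.94, 10.19 and 9.61 in the inflamed colons, against 9.57, 9.46, 9.52, 9.48 and 9.46 in the controls. Its difference of 0.41 ± 0.12 had an adjusted p of 0.0573 and passed without inflamed replicate 3, which was the lowest of the group (difference 0.56, adjusted p = 0.00712). It also passed with dim genes left out (adjusted p = 0.0342) and with array weights (0.0234). Syvn1, the ubiquitin ligase HRD1, was at 7.15, 7.22 and 7.23 in the inflamed colons, against 7.44, 7.31, 7.45, 7.29 and 7.28 in the controls. Its difference of -0.15 ± 0.051 was negative, with all inflamed values below the controls (adjusted p = 0.0993), and passed after quantile normalization (adjusted p = 0.0262). Sel1l, the adaptor of HRD1, differed by 0.04 ± 0.035 (adjusted p = 0.461, 95% interval -0.04 to 0.12), and by -0.0453 after quantile normalization.

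Among the paired family members, Derl1 differed by 0.26 ± 0.10 (adjusted p = 0.152) and Edem2 by 0.17 ± 0.069 (adjusted p = 0.161). Derl3, a Derlin known from secretory cells such as plasma cells, was at 5.505, 5.46 and 5.58 in the inflamed colons, against 5.43, 5.52, 5.48, 5.47 and 5.53 in the controls, with overlapping groups and a difference of 0.03 ± 0.038 (adjusted p = 0.625). The within-array log2 difference of Derl3 minus Derl1 was 0.23 lower in inflamed colon (exact permutation, two-sided p = 0.196, adjusted p = 0.262), and that of Edem2 minus Edem1 was 0.03 lower (exact permutation, two-sided p = 0.446), or 0.0178 higher after quantile normalization. A difference in response between these relatives was not detected with 3 and 5 arrays. The promoter stretches of Derl3 and Syvn1 hold an ERSE and that of Herpud1 an ERSE-II, with the fixed bases in capitals, and Herpud1 also holds the C/EBP-ATF response element TGATGNAA, written CARE, as TTgCATCA on the other strand.
Derl3, chr10:75893224-75893278, plus strand: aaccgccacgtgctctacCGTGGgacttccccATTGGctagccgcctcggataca
Syvn1, chr19:6046514-6046568, plus strand: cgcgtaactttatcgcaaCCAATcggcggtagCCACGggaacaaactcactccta
Herpud1, chr8:94386299-94386405, plus strand: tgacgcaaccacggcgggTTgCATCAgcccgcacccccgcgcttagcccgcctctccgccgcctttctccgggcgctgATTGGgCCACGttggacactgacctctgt
These 3 genes carry the letters and did not pass the test, while Hspa5 and Creld2, each with an ERSE, rose. Whether the change of these 3 genes differed from that of Hspa5 and Creld2 was not tested.

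Of the 6 sensor and transcription factor genes 1 rose and 1 fell, against 8.06% of all genes higher and 5.04% lower. Ern2, which encodes IRE1β, was at 8.39, 9.03 and 8.47 in the inflamed colons, against 9.68, 9.69, 9.72, 9.39 and 9.38 in the controls. All 3 inflamed colons lay below the controls, with replicate 2 the closest to them, and Ern2 fell by 0.94 ± 0.16 (adjusted p = 0.0105), a fold of 0.52. Ern1, which encodes the widely expressed IRE1α, was at 7.74, 7.74 and 7.74 in the inflamed colons, against 7.82, 7.74, 7.76, 7.74 and 7.62 in the controls. Its difference was 0.00 ± 0.043 (adjusted p = 1.0, 95% interval -0.10 to 0.10), and its deposited value was identical on 5 arrays. RMA summaries can tie in this way, and the SE of Ern1 then rests on few distinct values.

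The changes of Ern2 and Ern1 differed. The within-array log2 difference of Ern2 minus Ern1 was lower in inflamed colon by 0.94, and the groups did not overlap (exact permutation over 56 splits, two-sided p = 0.0179, adjusted p = 0.0357). With any 1 array left out this difference did not pass (exact permutation, adjusted p from 0.0571 to 0.0952). Its unadjusted p was then 0.0286 or 0.0476, the smallest that exact permutation of so few arrays can give. The lost call therefore does not show that the difference rests on single arrays. Eif2ak3, which encodes PERK, was at 8.13, 8.29 and 8.17 in the inflamed colons, against 7.94, 7.87, 7.96, 7.91 and 7.88 in the controls and rose by 0.28 ± 0.044 (adjusted p = 0.007). Atf6 was at 8.54, 8.88 and 8.74 in the inflamed colons, against 8.55, 8.42, 8.36, 8.50 and 8.53 in the controls. Its difference of 0.25 ± 0.08 did not pass (adjusted p = 0.0884). Inflamed replicate 1 of Atf6 lay inside the control range, and without that replicate the difference was 0.34 and passed (adjusted p = 0.0351).

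Xbp1 and Atf4, the transcription factors downstream of IRE1 and PERK, did not pass. Xbp1 was at 9.25, 9.86 and 9.53 in the inflamed colons, against 9.41, 9.41, 9.35, 9.28 and 9.22 in the controls, with inflamed replicate 1 inside the control range and replicates 2 and 3 above it (difference 0.21 ± 0.13, adjusted p = 0.314, 95% interval -0.08 to 0.51). Atf4 was at 8.71, 8.58 and 8.77 in the inflamed colons, against 8.58, 8.48, 8.58, 8.36 and 8.34 in the controls, with overlapping groups (difference 0.21 ± 0.074, adjusted p = 0.106). These are amounts of all Xbp1 and Atf4 transcripts, and the spliced form of Xbp1 was not measured apart.

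Of 8 measured goblet cell markers 3 fell, as Ern2 did, and 0 rose, against 5.04% of all genes lower and 8.06% higher. The chloride channel regulator gene Clca1 fell by 0.96 ± 0.18 (adjusted p = 0.013), the mucus protein gene Fcgbp by 0.73 ± 0.10 (adjusted p = 0.00412) and Atoh1, the transcription factor of the secretory lineage, by 1.09 ± 0.15 (adjusted p = 0.0044). With the groups overlapping, the summed goblet marker level was 14.1 to 14.8 (log2) in the inflamed colons and 14.7 to 15.0 in the controls. Inflamed replicate 2 was the highest of its group for Ern2, Clca1, Fcgbp, Atoh1, Zg16 and Spink4, and replicate 3 for Tff3, Spdef and Retnlb. Replicate 2 was also the highest for 26 of all 38 measured members. The difference of Clca1 was 0.43 (adjusted p = 0.194) when its probe sets were averaged, and it did not pass without inflamed replicate 1 (adjusted p = 0.0529). The other 5 goblet cell markers did not pass. Retnlb, a resistin-like protein of goblet cells, differed in the other direction, by 1.03 ± 0.55 (adjusted p = 0.264). Tff3 differed by -0.34 ± 0.14 (adjusted p = 0.165), Zg16 by -0.22 ± 0.18 (adjusted p = 0.469), Spdef by -0.40 ± 0.18 (adjusted p = 0.208) and Spink4 by -0.47 ± 0.36 (adjusted p = 0.426). Markers shared by all colon epithelium did not pass in any of 7 genes, with summed levels of 14.7 to 14.8 in inflamed colon and 14.5 to 14.7 in controls. The part of the goblet cell markers in the fall of Ern2 was not tested.

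**Figure D3:**
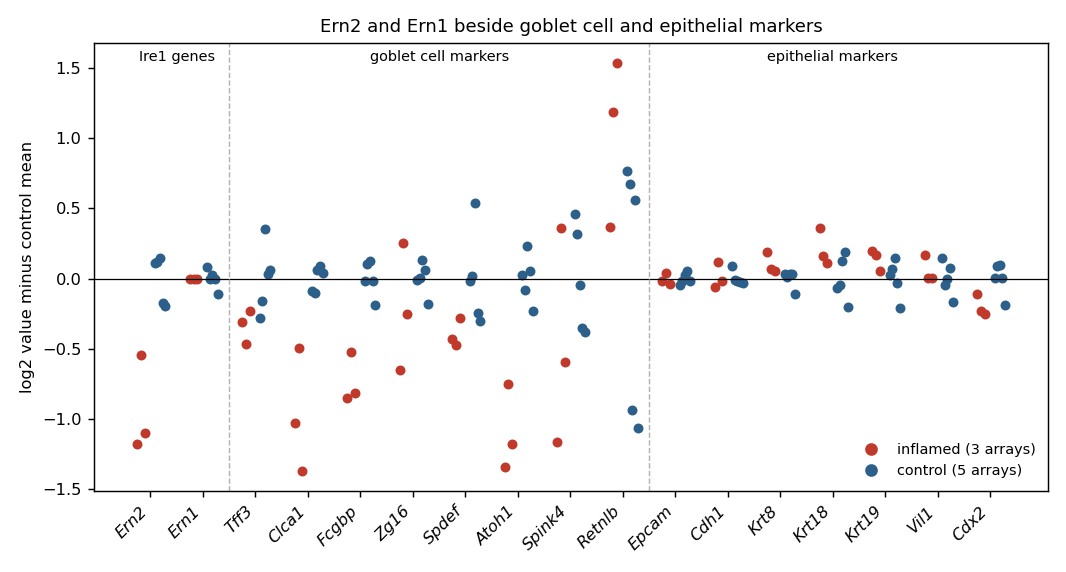
Log2 value of each array minus the control mean, for Ern2, Ern1, 8 goblet cell markers and 7 epithelial markers, with the 3 inflamed arrays in red left of the 5 controls in blue. The inflamed points of Ern2, Clca1, Fcgbp and Atoh1 lie below all controls, and those of Ern1 and Epcam lie among them.

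Markers of macrophages, neutrophils and T cells moved in the same direction as the chaperones. The marker counts here stand against 8.06% of all genes higher and 5.04% lower. All 7 macrophage markers rose, with a summed level of 12.7 to 13.2 in the inflamed colons and 9.93 to 10.2 in the controls. Of the neutrophil markers 4 of 6 rose, with sums of 10.1 to 12.6 in inflamed colon and 7.08 to 7.42 in controls. All 5 T cell markers rose, with sums of 8.83 to 9.81 in inflamed colon and 7.32 to 7.46 in controls. Of 6 plasma cell markers 0 rose and 1 fell, with sums of 8.68 to 8.87 in inflamed colon and 8.74 to 9.0 in controls. This sum rests mostly on Sdc1, with a mean of 8.28 in both groups, while the other markers had group means of 3.31 to 5.29. Both groups lacked mature B cells of their own, so no plasma cell level is read from it. Jchain was at 3.26 to 3.35 in inflamed colon and 3.35 to 3.36 in controls, below the median of all transcript clusters. Of the absorptive colonocyte markers 1 of 8 rose and 4 fell, and of the smooth muscle markers 0 of 6 rose and 5 fell. Of 5 fibroblast and 5 endothelial markers 0 passed. The part of these cell types in the rise of the ER folding genes was not tested.

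Of the 5 targets of the PERK and ATF4 branch 2 rose and 1 fell, against 8.06% of all genes higher and 5.04% lower. Asns, the asparagine synthetase gene and a target of ATF4, showed the largest rise among all members. It was at 8.49, 8.79 and 8.87 in the inflamed colons, against 7.84, 7.76, 7.47, 7.58 and 7.29 in the controls, and rose by 1.13 ± 0.14 (adjusted p = 0.00314), a fold of 2.19. Chac1, which degrades glutathione, was at 6.35, 6.23 and 6.63 in the inflamed colons, against 5.69, 6.04, 5.54, 5.63 and 5.65 in the controls. Its inflamed values all exceeded the controls, and it rose by 0.69 ± 0.13 (adjusted p = 0.015).

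Ddit3, which encodes CHOP, the factor tied to cell death under lasting ER stress, went the other way. It was at 7.58, 7.50 and 7.35 in the inflamed colons, against 7.75, 7.62, 7.88, 7.80 and 7.74 in the controls, with all inflamed values below the controls, and fell by 0.28 ± 0.071 (adjusted p = 0.0425). The call for Ddit3 was lost without any inflamed array and without control 1, 3, 4 or 5 (adjusted p from 0.0517 to 0.105), with median centring (0.0776), with a floor (0.0713), with array weights (0.0617) and with the sexes as a block (0.08).

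Trib3, a pseudokinase induced by CHOP and ATF4, was at 6.03, 5.90 and 6.10 in the inflamed colons, against 6.02, 6.10, 6.03, 5.96 and 6.04 in the controls, with a difference of -0.02 ± 0.051 (adjusted p = 0.851, 95% interval -0.14 to 0.10), and one of 0.0192 with median centring. Ppp1r15a, which encodes GADD34, the phosphatase subunit that reverses PERK signalling, was at 6.07, 5.67 and 6.18 in the inflamed colons, against 5.84, 5.57, 5.85, 5.84 and 5.84 in the controls. Control 2 stood below the other controls of Ppp1r15a, and the difference of 0.18 ± 0.12 did not pass (adjusted p = 0.369). The promoters of Asns and Chac1 are shown because these 2 ATF4 targets rose and both hold a CARE, TGATGNAA, with its fixed bases in capitals. The CARE of Asns lies 23 bases before the start, and that of Chac1 193 bases before it on the other strand. Trib3 holds a match after the start and did not pass.
Asns, chr6:7693210-7693459, minus strand: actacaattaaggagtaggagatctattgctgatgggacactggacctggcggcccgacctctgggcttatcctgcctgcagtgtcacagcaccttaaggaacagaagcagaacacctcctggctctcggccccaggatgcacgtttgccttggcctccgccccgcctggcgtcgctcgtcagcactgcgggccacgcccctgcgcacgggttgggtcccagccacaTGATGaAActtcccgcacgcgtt
Chac1, chr2:119350992-119351241, plus strand: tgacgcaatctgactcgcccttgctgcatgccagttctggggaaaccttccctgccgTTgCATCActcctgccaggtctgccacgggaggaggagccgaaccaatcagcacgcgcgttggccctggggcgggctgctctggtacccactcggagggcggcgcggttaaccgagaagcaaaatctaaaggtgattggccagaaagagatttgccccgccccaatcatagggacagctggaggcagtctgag
Trib3, chr2:152344030-152344055, minus strand: agctcaggtTTaCATCAgccgggcgg
Among these 3 genes a CARE was present in 2 that rose and in 1 that did not pass.

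All 5 members of the translocon and of the TRAP complex, which assists the channel, had positive differences, and 3 rose. Ssr3, the gamma subunit of TRAP, was at 9.78, 10.28 and 9.92 in the inflamed colons, against 9.48, 9.48, 9.23, 9.11 and 9.14 in the controls and rose by 0.70 ± 0.14 (adjusted p = 0.0181). Ssr1, the alpha subunit, was at 9.44, 9.68 and 9.48 in the inflamed colons, against 9.13, 9.17, 9.08, 9.04 and 8.95 in the controls and rose by 0.46 ± 0.069 (adjusted p = 0.00621). Sec61b, the beta subunit of the channel, was at 6.80, 6.87 and 6.86 in the inflamed colons, against 6.32, 6.51, 6.51, 6.30 and 6.35 in the controls and rose by 0.45 ± 0.06 (adjusted p = 0.00412). In each of these genes the inflamed values lay above every control.

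Sec61a1, the pore-forming subunit, was at 9.09, 9.29 and 9.21 in the inflamed colons, against 8.98, 8.97, 8.76, 8.80 and 8.56 in the controls. Its difference of 0.38 ± 0.10 did not pass (adjusted p = 0.0526), and it passed with median centring (adjusted p = 0.0421) and with dim genes left out (0.0318). Ssr2, the beta subunit of TRAP, was at 10.29, 10.83 and 10.51 in the inflamed colons, against 10.29, 10.29, 10.07, 10.04 and 9.68 in the controls, and its difference of 0.47 ± 0.17 did not pass (adjusted p = 0.119).

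Over all members, the promoter windows run from 250 bases before to 50 after the start. RefSeq held a window for 33 of the 40 members. Manf, Ssr2, Derl1, Hyou1, Sec61a1, Ern2 and Atf6 have no entry. ERSE was found in 39 of 32851 windows (0.119%), and 9 of its genes were members, namely Hspa5, Hsp90b1, Calr, Canx, Pdia6, Creld2, Dnajc3, Derl3 and Syvn1. ERSE-II was found in 12 windows (0.0365%), with Dnajb11 and Herpud1 among them, and shares the letters CCACG with ERSE. The unfolded protein response element TGACGTGG was found in 222 windows (0.676%) and in 0 of the members' windows. CARE was found in 1304 windows (3.97%), with 4 members.

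Matches occurred beside both outcomes. Of the 11 members with ERSE or ERSE-II, 7 rose and 4 did not pass, with a median difference of 0.42. Of the 21 measured members with a window and neither pattern, 11 rose, 1 fell and 9 did not pass, with a median of 0.21. The difference between these sets was not tested. Many members are textbook targets of these elements.

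**Figure D4:**
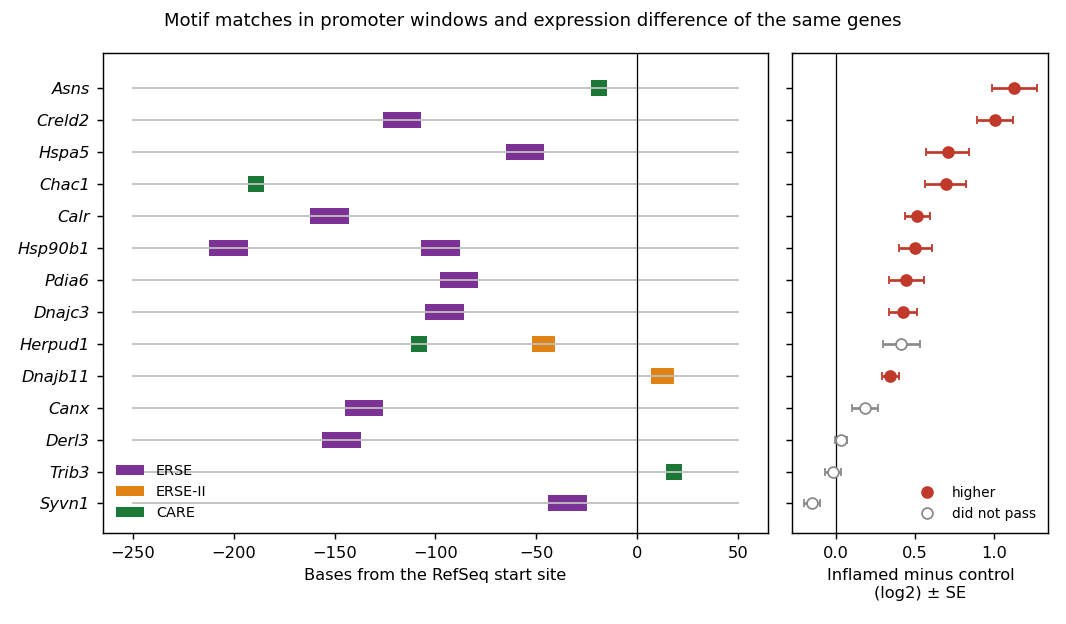
Left, positions of the ERSE, ERSE-II and CARE matches in bases from the RefSeq start site, and right, the difference of the same genes, inflamed minus control in log2 units with its SE. The differences of genes with an ERSE run from 1.01 for Creld2 to -0.15 for Syvn1.

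Over 122 further measured genes in 8 lists, 30 rose and 8 fell, with a median difference of 0.14. The counts of these lists stand against 8.06% of all genes higher and 5.04% lower. Of 25 other ER folding enzymes 4 rose and 1 fell. Ero1a, the oxidase that recharges PDI and is also known to respond to low oxygen, was at 10.54, 10.56 and 10.85 in the inflamed colons, against 9.37, 9.01, 9.19, 9.17 and 9.03 in the controls and rose by 1.496 ± 0.10 (adjusted p = 0.000398), more than any member. Prdx4, an ER peroxidase, rose by 0.36 ± 0.061 (adjusted p = 0.0098), while Txndc5, a PDI relative, fell by 0.44 ± 0.10 (adjusted p = 0.0262). Txndc5 did not pass without any inflamed array or control 1 or 2 (adjusted p from 0.0581 to 0.0901) or with a floor on low values (0.0503).

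In the other steps of the pathway the rises were again modest. Of 12 other degradation genes 3 rose and 0 fell. They were Vcp, the ATPase that pulls proteins out of the membrane, by 0.55 ± 0.091 (adjusted p = 0.00906), its cofactor Nploc4 by 0.34 ± 0.066 (adjusted p = 0.0168), and H13, the signal peptide peptidase, by 0.45 ± 0.086 (adjusted p = 0.0161). Of 18 other translocation and glycosylation genes 2 rose and 0 fell, not far from the 8.06% of all genes called higher. Both encode subunits of the signal peptidase. Spcs2 rose by 0.58 ± 0.14 (adjusted p = 0.0361) and Spcs3 by 0.50 ± 0.095 (adjusted p = 0.0152). Of 15 ER-to-Golgi transport genes 2 rose and 2 fell. The vesicle coat gene Sec23b rose by 0.57 ± 0.12 (adjusted p = 0.0199) and Mcfd2, a cargo receptor subunit, by 0.54 ± 0.054 (adjusted p = 0.00142), while the outer coat gene Sec31a fell by 0.37 ± 0.079 (adjusted p = 0.0244). Nploc4 did not pass without inflamed replicate 1 (adjusted p = 0.0664). Spcs2 did not pass without any inflamed array or control 3, 4 or 5 (0.0564 to 0.0847) or with a floor (0.0673), and Sec31a without inflamed replicate 1 or 3 or control 2, 3 or 4 (0.0539 to 0.0848) or with median centring (0.0541).

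Other genes of the integrated stress response, the ATF4 programme shared with amino acid shortage, moved in both directions. Of 23 measured genes 10 rose and 3 fell. Slc7a11, the cystine transporter, was at 8.36, 7.73 and 8.08 in the inflamed colons, against 4.74, 5.01, 4.69, 4.78 and 4.69 in the controls and rose by 3.28 ± 0.14 (adjusted p = 7.29e-05). Its control mean of 4.78 lay below the median of all transcript clusters, 4.88, where RMA understates differences. Wars, the tryptophanyl-tRNA synthetase gene, which interferon-gamma is also known to induce, rose by 1.54 ± 0.15 (adjusted p = 0.00121). Cth, the cystathionine gamma-lyase gene, was at 8.16, 8.90 and 7.84 in the inflamed colons, against 9.70, 9.60, 9.62, 9.72 and 9.502 in the controls and fell by 1.33 ± 0.21 (adjusted p = 0.0077).

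The membrane-bound transcription factors related to ATF6 included further falls beside that of Ern2. Of 7 measured ER membrane stress transducers 1 rose and 2 fell. Creb3l1 was at 8.29, 9.62 and 8.56 in the inflamed colons, against 10.12, 10.10, 9.97, 9.74 and 9.97 in the controls and fell by 1.16 ± 0.28 (adjusted p = 0.0364). Creb3l4 was at 6.54, 7.35 and 6.98 in the inflamed colons, against 8.38, 7.92, 7.88, 7.97 and 7.92 in the controls and fell by 1.06 ± 0.19 (adjusted p = 0.0131). Inflamed replicate 2 was again the nearest to the controls for both genes. Creb3 rose by 0.31 ± 0.069 (adjusted p = 0.0266). Creb3l1 did not pass without inflamed replicate 1 or 3 or any control (adjusted p from 0.0632 to 0.11) or with a floor (0.069). Creb3 did not pass without inflamed replicate 1 or 3 or control 1, 3, 4 or 5 (0.0563 to 0.0961), after quantile normalization (0.0952) or with the sexes as a block (0.052).

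Chaperones outside the ER also rose in part. Of 14 cytosolic chaperones 6 rose and 0 fell, the 3 with the largest rises being subunits of the CCT chaperonin, namely Cct2 by 0.47 ± 0.056 (adjusted p = 0.00247), Cct8 by 0.44 ± 0.075 (adjusted p = 0.0101) and Cct3 by 0.44 ± 0.089 (adjusted p = 0.0198). Of 8 mitochondrial chaperones and proteases 2 rose and 0 fell, the Hsp70 gene Hspa9 by 0.32 ± 0.059 (adjusted p = 0.0139) and the Hsp60 gene Hspd1 by 0.32 ± 0.058 (adjusted p = 0.0132). Cct3 did not pass without inflamed replicate 1 or control 2 (adjusted p = 0.0746 and 0.0508), and Hspa9 without inflamed replicate 1 (0.0572). Whether these lists differed from the ER members was not tested.

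**Figure D5:**
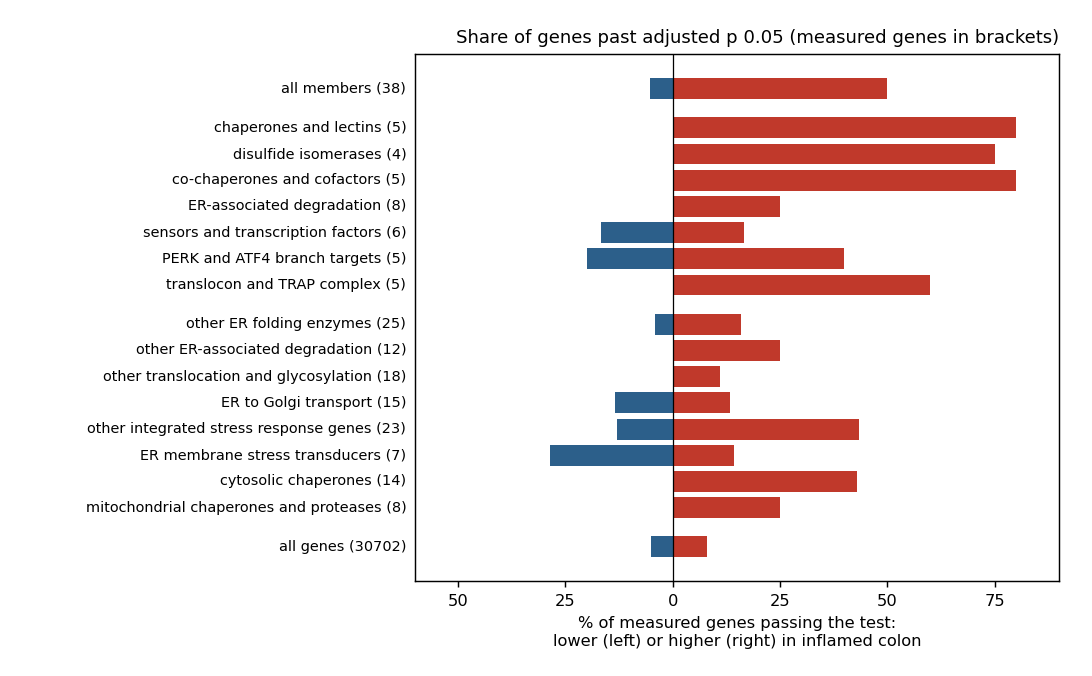
Percent of measured genes that rose (red, to the right) or fell (blue, to the left) in inflamed colon, for the members, their roles, the neighbouring lists and all genes. The members reach 50% higher and 5.26% lower, and all genes 8.06% and 5.04%.

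Single arrays differed within both groups. Over the 19 members that rose, the median deviation from the control mean was 0.40, 0.62 and 0.44 on inflamed replicates 1, 2 and 3, against 0.12, 0.10, 0.06, -0.04 and -0.14 on controls 1 to 5. Inflamed replicate 2 was the highest of its group for 14 of these 19 members and for 26 of all 38. Control 5 was the lowest control for 23 of 38. A left-out array ended the call of 8 of the 21 called members, as given above with each gene, and the other 13 passed whichever of the 8 arrays was left out. They are Hyou1, Calr, Pdia3, P4hb, Dnajb11, Creld2, Ern2, Eif2ak3, Chac1, Asns, Sec61b, Ssr1 and Ssr3. On the 4 arrays with low Xist alone, 2 inflamed against 2 controls, all 21 called members kept the direction of their difference. That was certain beforehand, since the inflamed and control values of each called member did not overlap. On these 4 arrays limma called 0 of the 30702 genes, with 4596 of all genes and 17 members at an unadjusted p under 0.05.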

How the data were processed

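Biotin-labelled total RNA was hybridised to Affymetrix whole-transcript arrays, per the labels' protocols. The values deposited by the authors are log2 intensities per probe set made with Affymetrix Expression Console and RMA, per the submitters' processing notes. The sources used here do not give their versions, the array model or the genome build. Of 72688 probe sets, 6732 controls were left out, and 31258 of 32750 annotated clusters could be named with 1 gene, giving 30702 genes, with the brightest probe set for each of the 441 genes that have several. The 1492 clusters shared by several genes stayed unnamed, and 2066 symbols were updated through the RefSeq gene table.

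Inflamed minus control differences were tested over all 30702 genes with Benjamini-Hochberg adjustment and a threshold of 0.05, using lmFit and eBayes of limma 3.58.1 under R 4.3.3 without covariates. Each array is taken as a separate mouse because the labels call the replicates biological. For 4 pairs of related genes the within-array difference was tested by exact permutation over all 56 ways to choose 3 of 8 arrays. The number of arrays, 3 and 5, limits the precision, since no counts or detection calls are used here. The fit was tested on simulated data with known changes.

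The members and all lists were chosen with earlier results of these data known. Neighbouring lists name up to their 3 largest called changes. Hspa8 was left out because the chromosome of its probe set does not match its gene. Promoter sequences are from RefSeq, build GRCm38.p6. Alternatives covered quantile normalization, median centring, leaving out dim genes, a floor on low values, a sex block, a replicate block, each array left out, array weights, robust variances with an intensity trend, all probe sets and their mean per gene. The arrays with low Xist alone were added after seeing the data.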

Additional observations from a re-analysis of the deposited data

Results flagged for a closer look

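Of the members' 38 control groups looked at, 2 held a value far from the other 4 by Dixon's test at the 95% level, where chance gives about 1 in 20. Hsp90b1 was at 10.812 on control 5, with the other controls at 11.065 to 11.15, a gap of 0.748 of the whole control range. Ppp1r15a was at 5.571 on control 2, with the others at 5.836 to 5.853, a gap of 0.942 of the range. Groups of 3 were not tested in this way.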

How the results depend on the processing

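Of the 21 called members, 0 changed direction under any setting, 13 kept their call whichever array was left out, and 16 kept it under the 9 other planned settings apart from the replicate block. Directions could not change with fewer arrays, since the groups of each called member did not overlap. Every called member except Ddit3 has 1 probe set, so using all probe sets or their mean per gene left its values as they were. Leaving out 1 array gave 2510 (without inflamed replicate 1) to 4574 (without inflamed replicate 2) genes called, 13 to 18 members higher and 1 to 3 lower. Members called lower were 1 with median centring, with the floor and with the sex block. With the replicate block 0 genes, 0 members higher and 0 lower were called, with 4918 genes at an unadjusted p under 0.05. The deviations of same-numbered arrays correlated at -0.285, -0.053 and 0.069, and these arrays matched in whether Xist was low or high. With so few arrays this does not decide whether the numbers pair the mice, and the labels state no pairing. The arrays with low Xist alone gave 0 genes, 0 members higher and 0 lower, with 4596 genes at an unadjusted p under 0.05. Differences near 0 changed sign, and none of these passed. They were Sel1l (-0.0453 with quantile normalization), Ern1 (0.0366 with median centring, 0.0 with array weights), Trib3 (0.0192 with median centring, 0.0179 with array weights) and Edem2 minus Edem1 (0.0178 with quantile normalization). With 1 array left out, Trib3 ranged from -0.0623 to 0.0368, Derl3 from -0.0035 to 0.0587 and Ern1 from -0.0281 to 0.0213. The change of Ern2 minus Ern1 ranged from -1.14 to -0.82 and that of Canx minus Calr from -0.39 to -0.29. Neither passed with 1 array left out (exact permutation, adjusted p of 0.0571 to 0.0952 over the 4 pairs). Both were then at the smallest unadjusted p that exact permutation of so few arrays can give, 0.0286 or 0.0476. These tests cannot show whether the 2 changes rest on single arrays. Of 25 named genes outside the members, 16 kept their call with each array left out, 19 under the 9 other planned settings, and Clca1 alone changed sign. The causes of these changes were not tested. Signal over background limits genes below the log2 median of 4.88, and 0 members lay there.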

Other observations

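Deposited values were identical to 5 decimals on 2 or more arrays for 18316 of the 30702 genes (59.7%), and on all 8 arrays for 209 genes. Of the 38 measured members 9 had such a tie, and 0 of the 21 called members did.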
